A study of Mus musculus with 8 samples.

Results

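The extracellular matrix of the mouse ileum was followed through 42 genes: 17 for collagens, laminin chains and nidogen, 15 for other matrix proteins and the enzymes that crosslink them, 5 for matrix metalloproteinases, 3 for inhibitors of those proteases and 2 for platelet-derived growth factor receptors. They were taken by gene symbol from a deposited table of 55487 genes. Each symbol matched 1 row. All 42 passed the filter on low values, a mean over the 8 libraries of 10 normalized counts or more, which left 16352 genes. Their lowest value in any library was 68.1 normalized counts.

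Bulk RNA of whole ileum, the last stretch of the small intestine, was sequenced from 4 wild-type mice (Gsdme+/+, here WT) and 4 Gsdme-deficient mice (Gsdme-/-, here Gsdme_KO), 1 library per mouse. All 8 mice had been given irinotecan, a topoisomerase I inhibitor used against colorectal cancer and known for its intestinal toxicity. Untreated mice were not analysed here, so every difference below is between the genotypes under the drug. The protein of Gsdme is gasdermin E, whose fragment, once cut free by caspase-3, opens pores in the membrane of dying cells. The sources used here do not give the dose, the time after treatment, age, sex, strain or the deleted stretch of Gsdme. Columns of the table are headed WT3, WT5, WT7, WT8, KO4, KO5, KO7 and KO8, and values are given in that order throughout.

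The matrix under the intestinal epithelium has several layers. Collagen IV, laminins and nidogen form the basement membrane on which the epithelium and the vessels rest, and collagens I, III and V form the fibrils of the lamina propria and submucosa, which lysyl oxidases crosslink. Most of these proteins are made by fibroblasts and smooth muscle cells, while metalloproteinases cut them and tissue inhibitors of metalloproteinases (TIMPs) block the cutting. Several metalloproteinase genes and Timp1 are known to be induced together by inflammatory signals through AP-1 type transcription factors.

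Promoter sequences were at hand for 27 of the 42 genes (RefSeq, GRCm38.p6), and the 250 bases before each annotated start were searched on both strands for 3 short motifs. The AP-1 type motif TGANTCA, where N is any base, was found in 4 of the 27 genes (Mmp3, Mmp10, Mmp13 and Col6a1) and in 6.75% of all 32851 promoters of the table. TATAAA was found in 6 of the 27 and in 12.4% of all promoters. CCAAT was found in 8 of the 27 and in 33.8% of all. Both of the first 2 motifs were present in Mmp13, Mmp3 and Mmp10, and in 1.21% of all promoters. The 250 bases before these 3 starts are shown because these 3 genes, with Timp1, varied most between libraries. They lie on the plus strand at chr9:7272264-7272513 for Mmp13, chr9:7445572-7445821 for Mmp3 and chr9:7502092-7502341 for Mmp10. Capitals mark TGANTCA, the first capital run in each line, and TATAAA, the second run.
Mmp13: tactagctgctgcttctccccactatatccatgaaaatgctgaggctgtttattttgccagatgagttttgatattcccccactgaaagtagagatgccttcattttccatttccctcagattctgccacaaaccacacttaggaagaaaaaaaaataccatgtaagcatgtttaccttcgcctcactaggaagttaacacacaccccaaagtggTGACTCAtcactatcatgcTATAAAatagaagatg
Mmp3: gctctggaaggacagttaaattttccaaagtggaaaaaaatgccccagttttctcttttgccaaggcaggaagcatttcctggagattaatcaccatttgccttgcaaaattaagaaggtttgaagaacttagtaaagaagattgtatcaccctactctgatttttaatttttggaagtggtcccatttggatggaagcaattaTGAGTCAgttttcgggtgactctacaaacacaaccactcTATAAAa
Mmp10: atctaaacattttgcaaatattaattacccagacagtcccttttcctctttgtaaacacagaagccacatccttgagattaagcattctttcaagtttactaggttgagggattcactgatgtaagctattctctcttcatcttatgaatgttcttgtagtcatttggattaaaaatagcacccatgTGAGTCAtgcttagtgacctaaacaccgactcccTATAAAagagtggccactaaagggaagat
The AP-1 type motif began 35 bases before the start of Mmp13, 46 before that of Mmp3 and 63 before that of Mmp10. The TATAAA began 16, 7 and 29 bases before the same starts, so the 2 motifs shared no base. The window of Timp1 held a CCAAT and neither of the other motifs. A match describes letters in a window and is not a measured binding site.

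The libraries held 15617407 to 23437343 reads in genes. Gsdme, the targeted gene, had 3376, 2169, 3164 and 2696 normalized counts in the WT libraries and 113, 187, 634 and 464 in the Gsdme_KO libraries. The Gsdme_KO mean was 12.3% of the WT mean (exact permutation test over 70 assignments, two-sided p = 0.0286, the smallest that 4 against 4 allows). Fabp6 and Slc10a2, bile acid genes typical of ileum, were at 14739 to 72985 and 7983 to 25319 normalized counts, so both were present in all 8 libraries. On the first principal component, which held 49.1% of the variance, KO4 scored 91.5 and KO5 46.5, against -35.3 to -1.37 for the other 6 libraries. The summed level of 8 B cell markers was 9233 and 5237 normalized counts in KO4 and KO5 and 204 to 312 in the other 6 libraries. The summed level of 11 enterocyte markers was lowest in KO4 (180581), KO5 (266191) and WT8 (345084), against 452497 to 603643 in the other 5. The matrix results are therefore also given without KO4 and KO5.

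The matrix genes were high or low together in the same libraries, and these libraries fell in both genotypes. The 42 genes together took 0.315%, 0.384%, 0.380% and 0.598% of the reads in WT and 0.520%, 0.522%, 0.353% and 0.418% in Gsdme_KO. WT8, KO4 and KO5 were the high libraries, WT3 was the lowest and the groups overlapped. The highest library was WT8, KO4 or KO5 for 41 of the 42 genes (97.6%), against 48.9% of all genes tested. WT8 was highest for 19 (45.2%, against 13.6% of all genes), KO4 for 16 (38.1%, against 25.6%) and KO5 for 6. WT3 was lowest for 28 of the 42 (66.7%, against 10.2% of all genes). WT8, KO4, KO5 and WT3 were singled out from the values of these same genes. Shares above those of all genes were therefore partly built into the choice. KO7 and KO8 both lay within the range of the 4 WT libraries for 36 of the 42 (85.7%, against 50.5% of all genes). In whole tissue, more cells of a type, more RNA per cell and a smaller share of other cells cannot be told apart. The enterocyte markers given above were lowest in KO4, KO5 and WT8, the high matrix libraries, and a link was not tested.

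**Figure D1:**
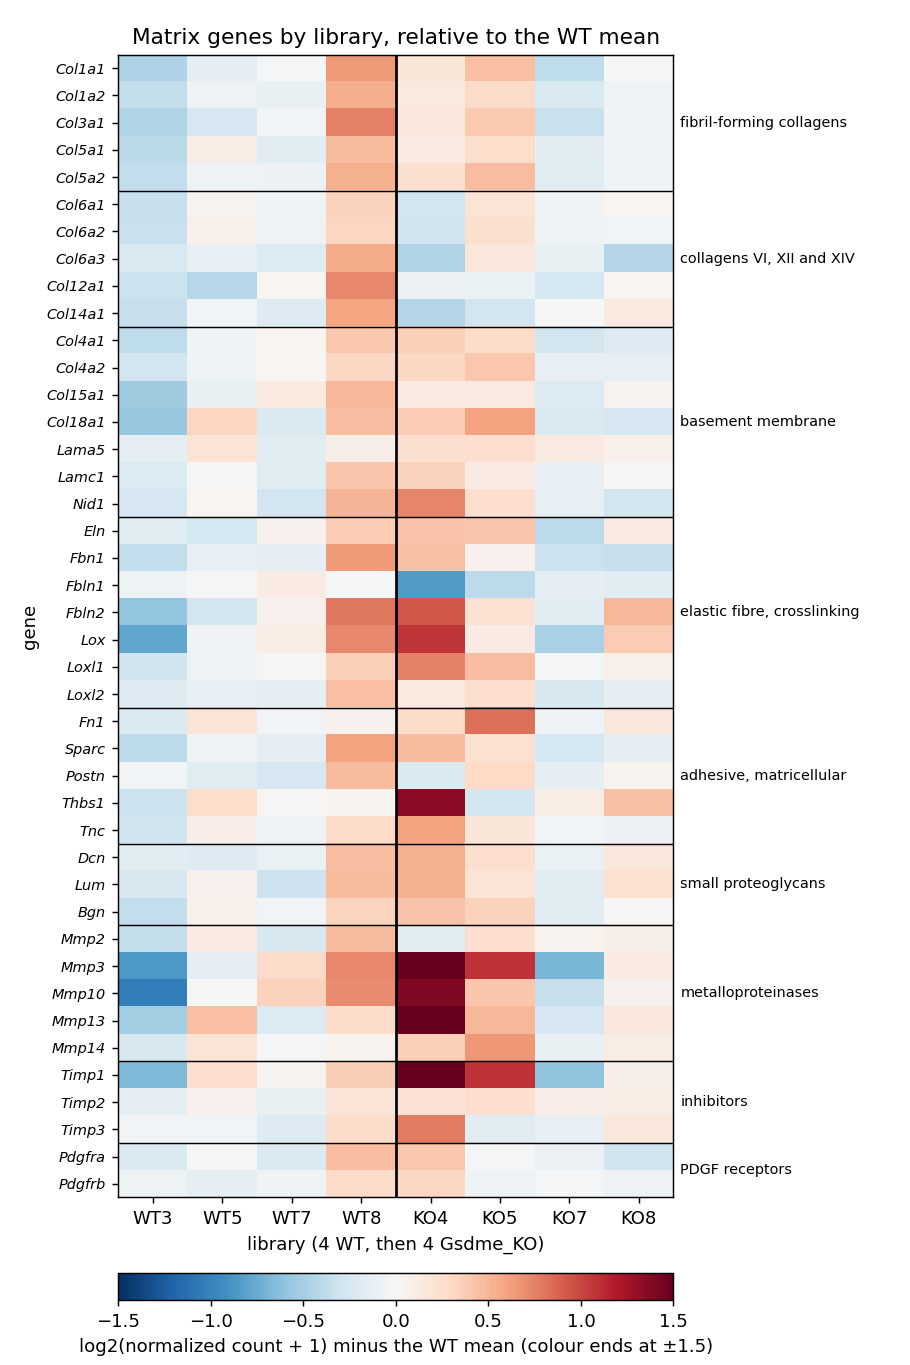
Level of each of the 42 matrix genes (rows, grouped by role) in each of the 8 libraries (columns), as log2(normalized count + 1) minus the mean of the 4 WT libraries; red is above and blue below that mean, and the colour ends at 1.5. WT8, KO4 and KO5 are mostly red and WT3 is blue in most rows, while KO7 and KO8 are pale.

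No matrix gene passed the test between the genotypes. The test was limma on log2(normalized count + 1), fitted over all 16352 genes with Benjamini-Hochberg adjustment, and a gene was called at an adjusted p under 0.05. limma called 0 of the 42 genes higher and 0 lower, with adjusted p from 0.849 to 0.999. Over all genes it called 0.00612% higher, which is 1 gene, and 0% lower. Gsdme itself, at 12.3% of its WT mean, was thus not called. The called gene, Igkv10-96, an immunoglobulin kappa variable segment with near-identical relatives, is no matrix gene and is named because it was the 1 call. At an unadjusted p under 0.05, limma counted 0 of the 42 higher and 1 lower (Fbln1), against 2.61% and 1.77% of all genes (4.38% in either direction). edgeR and DESeq2, run on whole reads recovered from the table, also called 0 of the 42, against 0.00612% of all genes higher and 0% lower for edgeR, and 0.0489% higher and 0.00612% lower for DESeq2. By unadjusted p under 0.05, each counted 1 of the 42, again Fbln1 as lower. Of all genes, edgeR counted 4.43% higher and 1.58% lower at that level, and DESeq2 5.12% and 1.82%.

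The mean log2 level was higher in Gsdme_KO for 33 of the 42 genes (78.6%) and lower for 9, against 50.6% and 49.4% of all genes tested. The median log2 fold change (Gsdme_KO minus WT) of the 42 was 0.12, against 0.0026 for all genes. This lean turned without KO4 and KO5: 12 of the 42 were higher and 30 lower, with 52% of all genes higher, and the median was -0.07. KO4 and KO5 were high libraries of 1 genotype, and WT8, also high, stayed in. A fall was therefore built into this choice, and it cannot show what the genotype does. Single libraries moved the lean too. Without WT3, 22 were higher with a median of 0.01, and without WT8, 40 were higher with a median of 0.26. The median was 0.04 without KO4, 0.04 without KO5, 0.07 without WT7 and 0.20 without KO7. With other scalings, 35 genes were higher with TMM factors and 36 after quantile normalization.

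**Figure D2:**
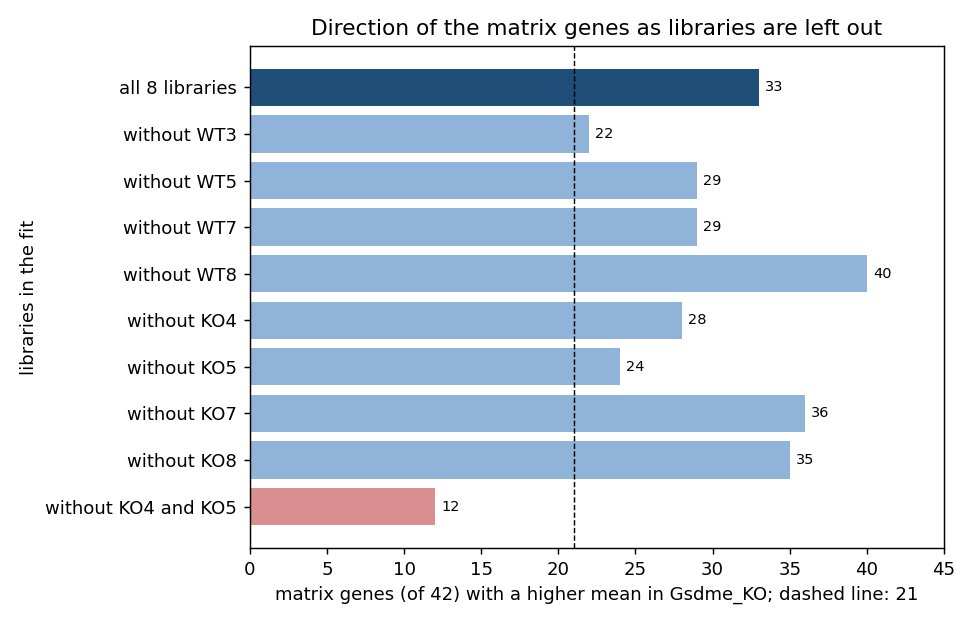
Number of the 42 matrix genes with a higher mean log2 level in Gsdme_KO (horizontal axis), with all 8 libraries and as libraries are left out (rows). The count is 33 with all libraries, 22 without WT3, 40 without WT8 and 12 without KO4 and KO5; the dashed line is at 21 of 42.

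The 5 fibril-forming collagen genes were nearly level between the genotypes. All 5 had a log2 fold change above 0, from 0.03 to 0.12 (median 0.04). This direction rested on single libraries: 0 of 5 were above 0 without WT3 (median -0.09), without KO5 (median -0.05) or without both KO4 and KO5. Col3a1, the chain of collagen III, had 5409, 6199, 7172 and 12441 normalized counts in the WT libraries and 8227, 9740, 5889 and 7132 in the Gsdme_KO libraries. WT8 was more than 1.5 times each other WT library, and the groups overlapped. Its WT mean was 7805 ± 3174 and its Gsdme_KO mean 7747 ± 1636 (SD, n = 4 each), lower in Gsdme_KO on the count scale, while the log2 fold change, a difference of mean logs, was 0.04. Col1a1, the alpha 1 chain of collagen I, had 2764, 3464, 3754 and 5941 in WT and 4350, 5216, 2943 and 3830 in Gsdme_KO. Col1a2, the alpha 2 chain, had 3747, 4563, 4447 and 7022 in WT and 5331, 5875, 4087 and 4562 in Gsdme_KO. Both chains followed the same order as Col3a1 at the top, with WT8 highest and KO5 next, and their groups overlapped. Col5a2, a chain of collagen V, which starts fibrils and limits their width, had 807, 984, 979 and 1512 in WT and 1233, 1440, 915 and 998 in Gsdme_KO. Its log2 fold change was the largest of the 5 at 0.12 (SE 0.21), and WT8 was again highest. Col5a1, the other collagen V chain, ranged from 864 in WT3 to 1583 in WT8. All 5 genes were lowest in WT3 and highest in WT8, and their limma adjusted p ran from 0.922 to 0.979.

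The collagens that form beaded filaments or sit on fibrils were slightly lower in Gsdme_KO with all libraries, without a call, and this direction rested on WT8. All 5 (3 chains of collagen VI, Col12a1 and Col14a1) had a log2 fold change below 0, from -0.21 to -0.02 (median -0.11), with limma adjusted p from 0.859 to 0.982. Without WT8, 4 of 5 were above 0 (median 0.07), and with array weights, which weigh each library by its fit, also 4 of 5 (median 0.08). Without KO4, 2 of 5 were above 0, and 1 of 5 was under quantile normalization (Col6a1) and without KO4 and KO5 (Col14a1). Col6a1 had 2929, 3839, 3583 and 4699 normalized counts in the WT libraries and 3074, 4293, 3582 and 3774 in the Gsdme_KO libraries. Col6a2 had 2832, 3773, 3392 and 4460 in WT and 2898, 4223, 3417 and 3479 in Gsdme_KO. Both were high in WT8 and KO5 and low in WT3 and KO4. Col6a3, the long chain of collagen VI, had 1429, 1527, 1450 and 2454 in WT and 1218, 1877, 1551 and 1234 in Gsdme_KO. WT8 stood far above the other 3 WT libraries, and KO4 was the lowest of all. Col14a1, a fibril-associated collagen, had 275, 338, 304 and 526 in WT and 258, 285, 348 and 386 in Gsdme_KO. KO4 was below the WT mean for all 5 of these genes, whereas it was above it for all 5 fibril-forming collagens. Col12a1, the other fibril-associated collagen, ranged from 443 in WT5 to 976 in WT8.

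The 7 basement membrane genes had log2 fold changes from 0.03 to 0.18 (median 0.12), all above 0. Without WT3, KO4 or KO5, 4 of 7 were above 0 (medians 0.02, 0.01 and 0.02), and without both KO4 and KO5, 1 of 7. The limma adjusted p ran from 0.849 to 0.984. Col4a1, a main chain of collagen IV, had 2584, 3227, 3421 and 4460 normalized counts in the WT libraries and 4306, 4060, 2781 and 2935 in the Gsdme_KO libraries. Its partner Col4a2 had 1938, 2236, 2379 and 2895 in WT and 2902, 3095, 2154 and 2146 in Gsdme_KO. Both chains were high in WT8, KO4 and KO5, and their groups overlapped. Lama5, a laminin chain of epithelial basement membranes, had 1114, 1416, 1091 and 1305 in WT and 1443, 1458, 1340 and 1295 in Gsdme_KO. It had the largest log2 fold change of the group, 0.18 (SE 0.10), and all 4 Gsdme_KO libraries were above its WT mean of 1232 ± 156 (SD, n = 4), but WT5 and WT8 were within their range. Nid1, nidogen, which links laminin to collagen IV, had 1048, 1269, 1026 and 1772 in WT and 2065, 1489, 1143 and 1030 in Gsdme_KO, with KO4 and WT8 high. Without KO4 the log2 fold change of Nid1 turned from 0.15 to -0.05. The laminin chain Lamc1 was highest in WT8 (1855) and Col18a1, whose end fragment is endostatin, in KO5 (2178). Col15a1 ranged from 336 in WT3 to 685 in WT8.

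Among the 7 genes of elastic fibres and crosslinking, Fbln1 was the 1 whose groups did not overlap, at a share of the 42 near that of all genes. Fbln1 encodes fibulin-1, a glycoprotein of elastic fibres and basement membranes. It had 1623, 1693, 1867 and 1692 normalized counts in the WT libraries and 951, 1304, 1545 and 1533 in the Gsdme_KO libraries. All 4 Gsdme_KO libraries were below all 4 WT libraries, and it was the only one of the 42 genes whose groups did not overlap (2.38%, against 2.5% of all genes, of which 1.19% lower and 1.31% higher). The log2 fold change was -0.39 (SE 0.15). The limma unadjusted p was 0.031 and the adjusted p was 0.849, so Fbln1 was not called, and the DESeq2 adjusted p was 0.62. KO4 was the lowest library. The log2 fold change was -0.24 without KO4 and -0.16 without KO4 and KO5. Fbln1 was also the 1 gene for which WT8 was not above the WT mean. It lies at chr15:85205949-85286535 on the plus strand (GRCm38, GENCODE M21).

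**Figure D3:**
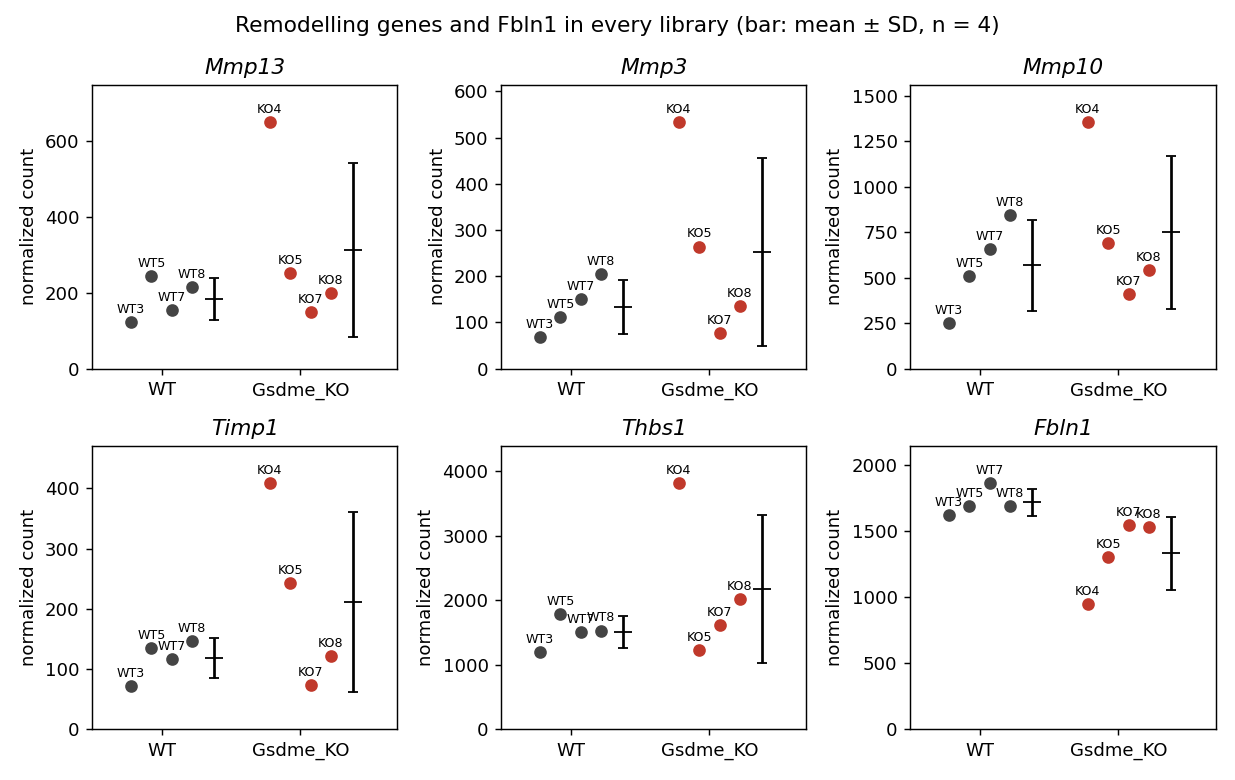
Normalized counts (vertical axes, each from 0) of Mmp13, Mmp3, Mmp10, Timp1, Thbs1 and Fbln1, 1 point per library in WT (grey) and Gsdme_KO (red), with the mean and SD of 4 libraries as bars. KO4 lies above all other libraries for the first 5 genes, and Fbln1 is the 1 gene whose groups do not overlap.

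Fibulin-2 went the other way. Fbln2 had 196, 245, 311 and 513 normalized counts in the WT libraries and 564, 346, 264 and 417 in the Gsdme_KO libraries, with KO4 and WT8 high and a log2 fold change of 0.37 (SE 0.32) that was 0.17 without WT3 and 0.18 without KO4. Lox, lysyl oxidase, the enzyme that starts collagen and elastin crosslinks, had 70.4, 117, 132 and 200 in WT and 255, 132, 86.5 and 159 in Gsdme_KO. Its log2 fold change of 0.27 (SE 0.38) was 0.01 without KO4 or without WT3. It was named after its values were seen, as the gene of the 42 with the lowest level per length. Loxl2, a related enzyme, had 589, 618, 614 and 919 in WT and 745, 799, 570 and 615 in Gsdme_KO. Its log2 fold change of 0.01 was negative in edgeR and DESeq2, and the groups overlapped for all 3 genes. Loxl1, another lysyl oxidase of elastic fibres, ranged from 193 in WT3 to 401 in KO4. Elastin itself, Eln, ranged from 407 in KO7 to 718 in KO4, and fibrillin-1, Fbn1, from 519 in WT3 to 1037 in WT8. Over the 7 genes, 5 had a log2 fold change above 0, the median was 0.15 and the limma adjusted p ran from 0.849 to 0.997. The median was 0.01 without KO4 and 0.01 without WT3, and without KO4 and KO5 2 of 7 were above 0, with a median of -0.13.

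Of the 5 adhesive and matricellular genes, 4 had a log2 fold change above 0 (median 0.16, limma adjusted p 0.849 to 0.999), and 2 did without KO4 and KO5 (median -0.05). The median was 0.07 without KO4 and 0.06 without WT3, and all 5 were above 0 with TMM factors or quantile normalization. Fn1, fibronectin, had 2990, 4003, 3374 and 3640 normalized counts in the WT libraries and 4238, 6176, 3355 and 3904 in the Gsdme_KO libraries. KO5 was the high library, KO4 was also above every WT library, and KO7 and KO8 lay within the WT range. Its log2 fold change of 0.31 (SE 0.18) was 0.13 without KO5 and 0.06 without KO4 and KO5. Thbs1, thrombospondin-1, which binds matrix and can activate latent TGF-beta, had 1196, 1791, 1511 and 1533 in WT and 3822, 1232, 1611 and 2023 in Gsdme_KO. KO4 was 2.54 times the WT mean whereas KO5 was 0.817 times it, so the 2 libraries that moved together for most matrix genes parted here. The log2 fold change was 0.41 (SE 0.31), and it was 0.09 without KO4. Sparc, osteonectin, a collagen-binding protein, had 3334, 4162, 3975 and 6638 in WT and 6059, 5105, 3653 and 3946 in Gsdme_KO, with WT8 and KO4 high. Tnc, tenascin-C, ranged from 1716 in WT3 to 3228 in KO4, and Postn, periostin, from 1328 in WT7 to 2192 in WT8.

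The 3 small leucine-rich proteoglycans, which bind collagen fibrils, were all highest in KO4. Dcn, decorin, had 4372, 4318, 4588 and 6778 normalized counts in the WT libraries and 7147, 5868, 4582 and 5533 in the Gsdme_KO libraries. Lum, lumican, had 1115, 1377, 1058 and 1833 in WT and 1903, 1516, 1165 and 1535 in Gsdme_KO. Bgn, biglycan, had 2176, 2943, 2723 and 3532 in WT and 3758, 3565, 2506 and 2846 in Gsdme_KO. KO4, WT8 and KO5 were the high libraries for Dcn and Bgn, and KO4, WT8 and KO8 for Lum. The log2 fold changes were 0.21 for Dcn, 0.20 for Lum and 0.16 for Bgn (SE 0.18, 0.20 and 0.18), with limma adjusted p from 0.849 to 0.875. Without KO4 they were 0.11, 0.09 and 0.07, and without KO4 and KO5 0.03, 0.03 and -0.07.

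Of the 5 metalloproteinases, Mmp3, Mmp10 and Mmp13 spread widely between libraries. All 5 had a log2 fold change above 0, with a median of 0.38. The median was 0.13 without KO4 and 0.17 without WT3, and 2 of 5 were above 0 without KO4 and KO5. Mmp3, stromelysin-1, which cuts many matrix proteins and activates other metalloproteinases, had 68.1, 112, 152 and 205 normalized counts in the WT libraries and 534, 264, 76.8 and 135 in the Gsdme_KO libraries. KO4 and KO5 were above all WT libraries, while KO7 was near the lowest of them. Its means were 134 ± 58.4 and 252 ± 203 (SD, n = 4 each), the log2 fold change was 0.65 (SE 0.58), and it was 0.17 without KO4 and -0.28 without KO4 and KO5. Mmp13, collagenase-3, the main interstitial collagenase of mice, had 124, 243, 154 and 215 in WT and 649, 251, 149 and 199 in Gsdme_KO. Its log2 fold change of 0.57 (SE 0.43) became 0.13 without KO4, the 1 library that stood far above the rest.

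Mmp10, stromelysin-2, made by epithelium at wound edges and by other cells, was named after its values were seen. It had 253, 511, 660 and 847 normalized counts in the WT libraries and 1357, 691, 408 and 542 in the Gsdme_KO libraries, with a log2 fold change of 0.38 (SE 0.44). Without KO4 this was 0.04, and without WT3 also 0.04. KO4 was highest and WT3 lowest, as for Mmp3 and Mmp13. The highest library was 7.84 times the lowest for Mmp3, 5.36 times for Mmp10 and 5.25 times for Mmp13, and 24 of the 42 matrix genes stayed within 2-fold. Of the 27 genes with a promoter at hand, these are the 3 whose windows, shown above, hold both TGANTCA and TATAAA. Timp1, with a 5.72-fold range, held neither, and a link between motifs and spread was not tested. The 3 genes neighbour each other on chromosome 9 in the order Mmp13, Mmp3, Mmp10, within 237727 bases. Mmp3 and Mmp10 are close paralogs: 140 stretches of 50 bases occur in the transcripts of both, of 1752 in Mmp3 and 1673 in Mmp10, so how reads were split between them is uncertain. Neither shares such a stretch with Mmp13.

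The 2 broadly expressed members of the family moved less. Mmp14, a membrane-anchored metalloproteinase that activates MMP2, had 1225, 1660, 1433 and 1497 normalized counts in the WT libraries and 1854, 2275, 1343 and 1557 in the Gsdme_KO libraries. KO5 and KO4 were above all WT libraries, and the log2 fold change of 0.25 (SE 0.17) was 0.12 without KO5 and 0.00067 without KO4 and KO5. Mmp2, gelatinase A, had 884, 1228, 953 and 1576 in WT and 1005, 1350, 1176 and 1202 in Gsdme_KO, with a log2 fold change of 0.06 (SE 0.18) that turned to -0.06 without WT3. KO4 was below its WT mean of 1160. For the 5 metalloproteinases the limma adjusted p ran from 0.849 to 0.952.

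Of the 3 inhibitors, Timp1 had the spread of the inducible metalloproteinases and Timp2 was the steadiest of the 42 genes. Timp1 had 71.5, 136, 117 and 147 normalized counts in the WT libraries and 409, 243, 74.3 and 121 in the Gsdme_KO libraries. KO4 and KO5 were above all WT libraries and KO7 was next to the lowest library, WT3. Its log2 fold change was 0.60 (SE 0.50), 0.19 without KO4 and -0.26 without KO4 and KO5. Timp2 had 1473, 1699, 1506 and 1862 in WT and 1895, 1937, 1741 and 1764 in Gsdme_KO. Its highest library was 1.31 times its lowest, all 4 Gsdme_KO libraries were above its WT mean of 1635 ± 181 (SD, n = 4), and WT8 was within their range. The log2 fold change was 0.17 (SE 0.09), and limma gave an unadjusted p of 0.102 and an adjusted p of 0.849. Timp3, an inhibitor bound to matrix, had 1471, 1477, 1328 and 1828 in WT and 2582, 1345, 1395 and 1707 in Gsdme_KO, with KO4 high, and its log2 fold change of 0.16 (SE 0.20) turned to -0.04 without KO4. Of its exon bases, 21.3% overlap Syn3 on the opposite strand. The libraries were strand-specific per the labels, but the sources used here do not give the strand setting of the counting.

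The PDGF receptors, which mark fibroblasts and pericytes, were nearly level between the genotypes. Pdgfra had 1392, 1587, 1400 and 2243 normalized counts in the WT libraries and 2149, 1586, 1523 and 1318 in the Gsdme_KO libraries, and Pdgfrb had 649, 618, 651 and 831 in WT and 845, 648, 676 and 648 in Gsdme_KO. A single library in each group, WT8 or KO4, stood above the other 3 for both genes. The log2 fold changes were -0.01 (SE 0.19) and 0.04 (SE 0.13), with limma adjusted p of 0.997 and 0.957. Without WT8 they were 0.15 and 0.13, and without KO4 -0.14 and -0.05. With TMM factors Pdgfra was at 0.000678.

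**Figure D4:**
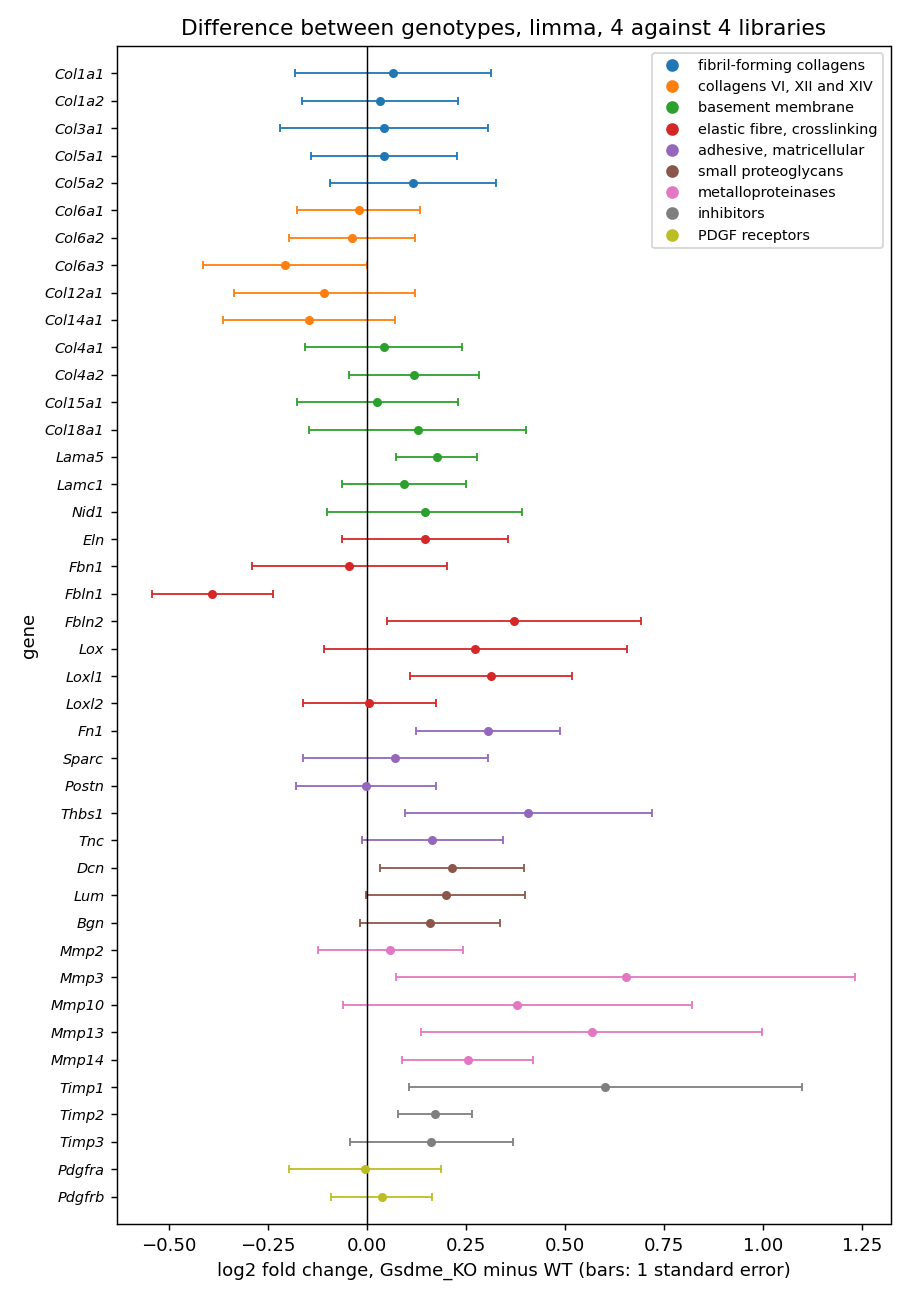
Log2 fold change (Gsdme_KO minus WT, horizontal axis) of each of the 42 matrix genes (rows, coloured by role) from limma on 4 against 4 libraries, with 1 standard error either way. The metalloproteinases Mmp3, Mmp13 and Mmp10 and Timp1 have the widest bars, from 0.43 to 0.58, and Fbln1, at -0.39, is the lowest value.

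Levels were compared between genes per kilobase of exon (normalized counts, mean of 8 libraries, divided by the union of GENCODE M21 exons). Sparc was highest at 1217, followed by Dcn at 925, Col6a1 at 850, Col3a1 at 792, Col1a1 at 614 and Lum at 587. Of the 3 metalloproteinases that spread widely, Mmp3 and Mmp13 were low, at 107 and 92.7, while Mmp10 was at 382, above Mmp2 at 348. Lox was the lowest at 30.1, below Col12a1 at 38.7 and Col14a1 at 48.5. Of the inhibitors, Timp2 was highest at 445, then Timp3 at 202 and Timp1 at 186. Neighbours in this order such as Col6a1 and Col3a1 differed by less than the spread between libraries. The order also rests on the annotated exon length. Col6a1 and Col6a2 had similar mean levels of 3722 and 3559 normalized counts. Their exon unions of 4380 and 8326 bases put them at 850 and 427 per kilobase.

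Chains that assemble into 1 collagen had narrower ranges of ratio than of level in the 5 pairs compared, though Col6a3 to Col6a1 hardly so. This was not particular to such chains. Col1a1 to Col3a1, of different collagens, had a 1.17-fold range against 2.15-fold and 2.30-fold for the levels. Dcn to Lum had a 1.38-fold range against 1.66-fold and 1.80-fold. The ratio of Col6a1 to Col6a2 normalized counts was 1.02 to 1.08 over the 8 libraries, a 1.07-fold range, while the levels ranged 1.60-fold and 1.57-fold. For Col4a1 to Col4a2 it was 1.29 to 1.54, a 1.19-fold range against 1.73-fold and 1.60-fold. For Col1a1 to Col1a2 it was 0.720 to 0.888, a 1.23-fold range against 2.15-fold and 1.87-fold. For Col5a1 to Col5a2 it was 0.951 to 1.25, a 1.32-fold range against 1.83-fold and 1.87-fold. Col6a3 to Col6a1 ran from 0.327 in KO8 to 0.522 in WT8, a 1.60-fold range against 2.02-fold for Col6a3 and 1.60-fold for Col6a1. Col6a1 and Col6a2 lie 85161 bases apart on chromosome 10, and Col4a1 and Col4a2 start head to head on chromosome 8 and share 22 exon bases.

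Of the pairs of protease and inhibitor, Mmp3 and Timp1 varied together across libraries and Mmp14 and Timp2 less so. The ratio of Mmp3 to Timp1 was 0.952, 0.825, 1.29 and 1.39 in WT and 1.30, 1.09, 1.03 and 1.11 in Gsdme_KO. That is a 1.69-fold range, against 7.84-fold for Mmp3 and 5.72-fold for Timp1. The ratio of Mmp13 to Timp1 ran from 1.03 in KO5 to 2.00 in KO7, a 1.93-fold range against 5.25-fold and 5.72-fold. Mmp10 to Mmp3 was lowest in KO4 and KO5, at 2.54 and 2.61, against 3.72 to 5.32 in the other 6 libraries. Mmp14 to Timp2 ran from 0.771 in KO7 to 1.17 in KO5, a 1.52-fold range, wider than that of Timp2 (1.31-fold) and narrower than that of Mmp14 (1.86-fold). Fbln1 to Fbln2 was 8.27, 6.90, 6.01 and 3.30 in WT and 1.69, 3.77, 5.84 and 3.68 in Gsdme_KO, with KO4 lowest and WT8 below the other WT libraries. In all, 12 ratios were compared between the genotypes by an exact permutation test, two-sided. The smallest raw p was 0.171, for Fbln1 to Fbln2, and the adjusted p was 0.886 for all 12.

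**Figure D5:**
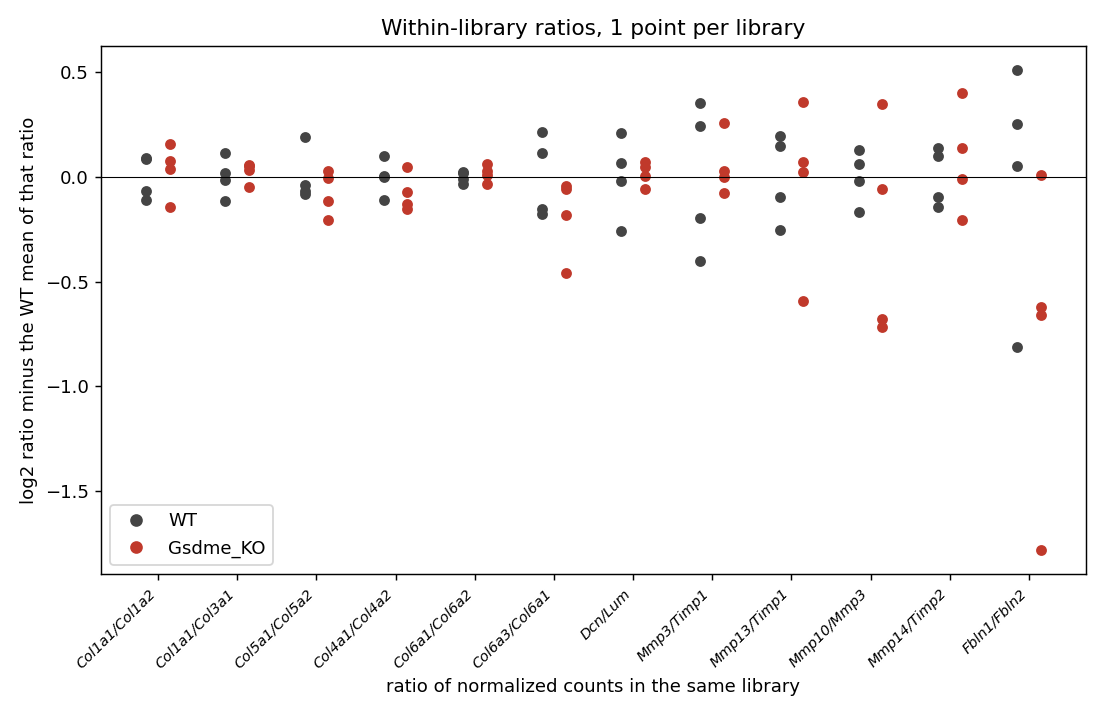
Log2 ratio of 2 genes in the same library, minus the mean of that ratio over the 4 WT libraries (vertical axis), for 12 pairs of matrix genes (horizontal axis), 1 point per library in WT (grey) and Gsdme_KO (red). Col6a1 to Col6a2 is the tightest pair, within 1.07-fold, and Fbln1 to Fbln2 the widest, at 4.90-fold.

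Other genes of the matrix, from 8 lists that hold none of the 42, gave the wider setting, and limma called 0 in each list. Of 23 other collagen genes tested, 12 had a log2 fold change above 0 (median 0.01). Of 24 genes of collagen synthesis it was 14 (median 0.04). P4hb, a subunit of prolyl hydroxylase and a protein of all secretory cells, led that list by level with 18205 to 25954 normalized counts. Of 19 other basement membrane genes, 9 were above 0 (median -0.02), of 14 other elastic fibre genes 8 (median 0.10), of 23 other proteoglycans and matricellular genes 9 (median -0.06) and of 24 matrix receptors 15 (median 0.05).

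Lists of other proteases and inhibitors and of PDGF and TGF-beta signalling also had most members above 0. Several of the lists above did too, and 50.6% of all genes tested were above 0. Of 34 other proteases and inhibitors tested, 29 had a log2 fold change above 0 (median 0.25). Their summed level was 32889 and 31195 normalized counts in KO4 and KO5 and 19753 to 23685 in the other 6 libraries. The most abundant, Mmp7, matrilysin, which Paneth cells make, had 3505, 3245, 7084 and 5416 in WT and 8367, 9739, 2844 and 4245 in Gsdme_KO. KO5 and KO4 were highest and KO7 lowest. Of 23 genes of PDGF and TGF-beta signalling, 17 were above 0 (median 0.11). Grem1, a BMP antagonist made by stromal cells around the crypts, led them with 5234, 6039, 6238 and 5450 in WT and 12788, 7753, 5337 and 7196 in Gsdme_KO, with KO4 high.

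Markers of the cells that make or surround the matrix varied in part with the same libraries, and their part in the matrix results was not tested. The summed level of 15 fibroblast markers outside the 42 genes was 8543, 8985, 9756 and 13637 normalized counts in the WT libraries and 19324, 12160, 9468 and 11962 in the Gsdme_KO libraries, with C3, a complement gene also expressed by other cells, the largest. Averaged over the markers as log2 values relative to the WT mean, so that no single marker dominates, WT8 was at 0.33, KO4 at 0.28 and KO5 at -0.06. KO5, high for most matrix genes, was thus not high over these markers. The 10 smooth muscle markers summed to 70851 to 86433 in WT and 62755 to 98622 in Gsdme_KO, with KO4 lowest and KO5 highest. The 5 mesothelium markers, of the outer lining of the gut, summed to 862 to 1859 in WT and 1256 to 2625 in Gsdme_KO, with KO4 highest. The 9 blood endothelium markers summed to 3640 to 3998 in WT and 5837, 4841, 3838 and 4114 in Gsdme_KO. The 6 neutrophil markers summed to 104 to 144 in WT and 1260, 484, 116 and 213 in Gsdme_KO. The 8 macrophage markers summed to 4288, 5018, 4340 and 5651 in WT and 7625, 6070, 4444 and 4716 in Gsdme_KO. Lymphatic endothelium markers, 6 in all, summed to 1127, 1254, 1452 and 1866.5 in WT and 1825, 1605.5, 1335 and 1662 in Gsdme_KO. Both lists were lowest in WT3, whereas the 6 pericyte markers were lowest in WT7 and highest in WT5. Enteric neuron and glia, interstitial cell of Cajal, T cell, adipocyte and pancreas markers are not detailed here. WT8, high for the fibril-forming collagens, had a B cell marker sum of 275, within the range of the other WT libraries. Averaged over the 8 markers as log2 values relative to the WT mean, WT8 was at 0.64, above the other WT libraries (-0.43 to 0.14), with KO4 at 6.17 and KO5 at 5.35. Among the 6 follicle stroma markers, Fdcsp and Ccl21a were at 0 in all 8 libraries, and the sum was 1084 and 798 in KO4 and KO5 against 129 to 228 in the other 6.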

How the data were processed

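Poly(A)-selected, strand-specific RNA libraries of ileum from 4 WT and 4 Gsdme_KO mice were sequenced in bulk, per the labels' protocols. HISAT2, SAMtools, featureCounts, Subread and DESeq2, with the build GRCm38, are named in the submitters' processing notes. Versions and settings: not given in the sources used here. What the authors deposited is 1 table of normalized counts, a signal per gene scaled between libraries. Each value times 1 divisor per library was a whole number within 0.01 reads (100% of values in each library). The divisors match median-of-ratios size factors up to a common scale. The deposited normalized counts were therefore turned back into whole reads for the count tests. The table's header numbers do not match the numbers 1 to 4 of the labels, so columns were assigned by genotype only. No 2 libraries agreed within sampling noise: the closest pair differed with a chi-square of 12.5 per degree of freedom.

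The main test was limma 3.58.1 (R 4.3.3) with a trend on log2(normalized count + 1), without covariates, over 16352 genes (mean of 10 normalized counts or more), with Benjamini-Hochberg adjustment. A fold change on this scale understates that of low genes. Alternatives were pseudocounts of 0.5 and 5, no filter or a mean of at least 50, TMM factors, quantile normalization, array weights, an adjusted p under 0.1, each library left out, and edgeR 4.0.16 and DESeq2 1.42.0 on the recovered reads. edgeR called 1 gene and DESeq2 9. Leaving out KO4 and KO5 together was added after seeing the data. On simulated data with 200 changed genes, 44.6% of 2-fold and 85% of 4-fold changes were recovered over 5 runs of this comparison with 16352 genes. Ratios within a library and Gsdme were tested by exact permutation. Gene positions and exon lengths came from GENCODE M21 (GRCm38), and promoters from RefSeq (GRCm38.p6). The members, gene lists, ratios and tests were chosen with earlier results of these data known, so no list was tested as a set. Named members were, in each role, the 2 of highest level and the 2 of largest fold change, and any whose groups did not overlap, 30 in all; Mmp10 and Lox were added after their values were seen. In each other list, the rule was to name the called genes or else the 2 of highest mean, but fewer or none are named here. Others named outside the rule were chosen after their values were seen.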

Additional observations from a re-analysis of the deposited data

Results flagged for a closer look

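In 5 of 84 groups of 4 libraries (42 genes in both genotypes), the highest library stood apart from the other 3 by Dixon's test. Chance flags about 1 in 20 such groups, or 4.2 of 84, so the number of flags is near that. In WT the library was WT8 each time. Col6a3, the long chain of collagen VI, was at 2454.2 normalized counts in WT8 against 1429 to 1527 in the other WT libraries. Loxl2, a lysyl oxidase, was at 918.8 in WT8 against 589 to 618. Dcn, decorin, was at 6778.2 in WT8 against 4318 to 4588. Pdgfrb, the PDGF receptor of pericytes and fibroblasts, was at 831.0 in WT8 against 618 to 651. In Gsdme_KO, Pdgfrb was at 845.2 in KO4 against 648 to 676.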

How the results depend on the processing

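The count of matrix genes called was 0 in limma, edgeR, DESeq2 and every alternative run, and the lowest adjusted p of a matrix gene was 0.428 (limma without KO7). In limma with all libraries, 1 of the 42 had an unadjusted p under 0.05. DESeq2 called 9 genes over all, against 1 in limma, and with 1 library left out limma called 0 to 1. Without KO4 and KO5, 12 of the 42 were higher in Gsdme_KO. No cause of these changes was tested. Without KO4 and KO5 the log2 fold change turned, among the 32 genes named, for Mmp3 (-0.28), Timp1 (-0.26), Col4a1 (-0.23), Sparc (-0.20), Nid1 (-0.20), Col3a1 (-0.19), Col1a1 (-0.19), Loxl2 (-0.185), Col1a2 (-0.155), Mmp10 (-0.14), Col5a2 (-0.12), Col4a2 (-0.12), Bgn (-0.069), Lox (-0.050), Mmp13 (-0.046), Pdgfrb (-0.044) and Col14a1 (0.070), and among the other 10 matrix genes for Col18a1 (-0.24), Eln (-0.13), Col5a1 (-0.11), Col15a1 (-0.0785), Tnc (-0.0625) and Lamc1 (-0.053). Small values also turned elsewhere: with TMM factors Pdgfra (0.000678), with quantile normalization Pdgfra (0.022) and Col6a1 (0.021), with array weights Col14a1 (0.15), Col6a1 (0.11), Col6a2 (0.076), Col4a1 (-0.026), Loxl2 (-0.0094), Nid1 (-0.0093) and Pdgfrb (-0.0093), with edgeR Col3a1 (-0.0047) and Loxl2 (-3.79e-06) and with DESeq2 Col3a1 (-0.010) and Loxl2 (-0.0052). Among the other 10, Postn turned with TMM factors (0.0036), quantile normalization (0.022) and array weights (0.098), Col12a1 with array weights (0.031), and Col15a1 with edgeR (-0.0097) and DESeq2 (-0.0152). With 1 library left out in turn, 17 of the 32 named genes kept their direction and 15 did not. The latter ranged over Col14a1 -0.261 to 0.0506, Col1a1 -0.0909 to 0.277, Col1a2 -0.0875 to 0.215, Col3a1 -0.108 to 0.293, Col4a1 -0.0845 to 0.178, Col5a2 -0.00673 to 0.295, Col6a1 -0.135 to 0.0922, Col6a2 -0.149 to 0.0696, Loxl2 -0.0745 to 0.155, Mmp2 -0.0593 to 0.219, Nid1 -0.0485 to 0.314, Pdgfra -0.142 to 0.15, Pdgfrb -0.0541 to 0.131, Sparc -0.062 to 0.272, Timp3 -0.0397 to 0.274. No paired analysis was possible because the numbers in the table's headers could not be tied to the numbers in the labels, so the planned replicate block was not run. With 4 libraries a group, changes of 2-fold were often missed: of simulated 2-fold changes in this comparison with 16352 genes, 44.6% were recovered. In the real data limma did not call Gsdme itself.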
